A study of Homo sapiens with 6 samples.

Results

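The 10 genes described here encode the kinase mTOR, subunits of its complexes and proteins that hold it back under stress: MTOR, RPTOR, RICTOR, PRR5L, DEPTOR, TSC2, DDIT4, SESN1, SESN2 and SESN3. They were found by name among the 27238 rows of the deposited expression table, and each had 1 row. They were chosen by their FPKM difference between the groups, so that difference is given below as a description, with no p-value. QBC-939 cells, a human line that the labels call cholangiocarcinoma (cancer of the bile duct), were treated for 48 h with an shRNA against BMI1 (Bmi1 shRNA, 3 libraries) or with a scrambled shRNA (3 libraries). The libraries of a group are described as independent transfections of the same line. How many shRNA sequences were used was not given in the sources used here. BMI1 is a core protein of Polycomb repressive complex 1, which keeps genes silent through ubiquitin on histone H2A. The comparison asked how the mRNA profile differs when BMI1 is lowered.

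mTOR is a kinase that works in a pair of complexes. In mTORC1 the scaffold RPTOR (Raptor) presents substrates that drive protein synthesis and curb autophagy, and the kinase is switched on at the lysosome by the Rag GTPases when amino acids are plentiful and by RHEB when growth factors signal. In mTORC2 the scaffold RICTOR joins with partners such as PRR5 or PRR5L, and the complex acts on AKT and related kinases. Cells brake mTORC1 through TSC2, which shuts off RHEB, and through DDIT4 (REDD1), which is induced by hypoxia and other stress. They also brake it through the sestrins SESN1, SESN2 and SESN3, of which SESN2 answers to ATF4 and SESN3 to FOXO factors. SESN2 reports a lack of leucine to the Rag GTPases.

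Levels are in FPKM, fragments per kilobase of transcript relative to all fragments of the library, which allow levels to be compared between genes and leave a change in total mRNA per cell unseen. FPKM summed to 352800 to 360371 in the Bmi1 shRNA libraries and to 332910 to 341268 in the scrambled shRNA libraries. The number of reads behind them is not known. BMI1 was checked as the targeted gene. It measured 1.49, 1.19 and 2.65 FPKM in the Bmi1 shRNA libraries, against 6.65, 5.34 and 6.09 FPKM in the scrambled shRNA libraries (log2 fold change -1.37, standard error 0.19; limma, adjusted p = 0.00162). All 8 listed bile duct epithelial markers had a mean of at least 1 FPKM, though the biliary keratin KRT7 was low, at 2.06 to 3.45 FPKM in the Bmi1 shRNA libraries and 2.70 to 2.77 FPKM in the scrambled shRNA libraries. Their summed FPKM ran from 1544 to 1776 with Bmi1 shRNA and from 1810 to 1972 with scrambled shRNA. Of 4 hepatocyte markers with a row 2 reached 1 FPKM, SERPINA1 and TTR, and the summed level was 228 to 240 FPKM with Bmi1 shRNA and 156 to 166 FPKM with scrambled shRNA. Of the immune markers 1 had a row, the lysosomal protein gene CD68, at 6.78 to 8.39 FPKM with Bmi1 shRNA and 11.1 to 12 FPKM with scrambled shRNA. The fibroblast, endothelial and adipocyte markers with a row each summed, per list, to at most 0.445 FPKM in any library. The part of hepatocyte and immune marker expression in the results below was not tested.

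Among the genes chosen by their FPKM difference, DDIT4 and SESN2 were the most abundant brakes on mTORC1. Both were much lower in the Bmi1 shRNA libraries, and their promoters are shown because the results below turn on these genes. The sequences are RefSeq's for GRCh38.p14, 250 bases before to 50 bases after the annotated start, 5′ to 3′ on the gene's own strand, for chr10:72273674-72273973 (DDIT4, forward strand) and chr1:28259268-28259567 (SESN2, forward strand). Capitals mark each CCAAT motif, the binding sequence of the factor NF-Y, which stands here in reverse as ATTGG.
DDIT4: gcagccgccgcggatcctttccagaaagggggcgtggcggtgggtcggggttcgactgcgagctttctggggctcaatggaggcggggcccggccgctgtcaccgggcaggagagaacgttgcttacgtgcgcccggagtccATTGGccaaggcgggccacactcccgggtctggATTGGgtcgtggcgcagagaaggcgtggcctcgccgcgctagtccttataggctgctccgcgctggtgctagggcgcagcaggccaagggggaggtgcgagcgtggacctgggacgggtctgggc
SESN2: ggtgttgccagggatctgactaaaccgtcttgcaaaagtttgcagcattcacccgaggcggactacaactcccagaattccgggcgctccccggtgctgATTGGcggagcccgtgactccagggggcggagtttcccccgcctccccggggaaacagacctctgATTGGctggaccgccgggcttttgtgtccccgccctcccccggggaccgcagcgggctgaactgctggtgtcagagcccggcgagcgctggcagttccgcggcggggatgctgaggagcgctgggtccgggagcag
Each promoter held 2 such motifs, beginning 108 and 75 bases before the start in DDIT4 and 151 and 86 bases before it in SESN2. Searched on both strands, CCAAT was found at least once in 34.6% and at least 2 times in 10.8% of 35116 annotated promoters of this length. The search also covered GGGCGG (the GC box, in 45% of promoters), TGACG (the core of cAMP response elements, in 24.6%) and TGATGNAA (the core of the element that ATF4 binds with C/EBP factors, in 3.62%). The DDIT4 window held none of these 3, and the SESN2 window held 2 GC boxes and neither of the others. Among the other genes with an entry, the MTOR window held 3 CCAAT motifs, RICTOR 1, and RPTOR, SESN3 and both TSC2 windows 0. PRR5L held 1 in the first of its 3 windows, and SESN1 held 1 in each of the inner 2 of its 3 windows. A match describes letters in the window and no binding was measured.

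DDIT4 was the most abundant of the 10 mRNAs in both groups, above 97.9% of the genes tested. It measured 141, 133 and 135 FPKM in the Bmi1 shRNA libraries, against 228, 239 and 252 FPKM in the scrambled shRNA libraries. The groups lay far apart and each was tight. The mean with Bmi1 shRNA was 136 ± 4.17 FPKM, 57.0% of the 239 ± 12 FPKM with scrambled shRNA (SD, n = 3 each), and the log2 fold change was -0.81 (standard error 0.06) on the scale of log2(FPKM + 1). Fold changes below use this scale and so understate those of low genes. In bulk RNA a lower value can come from fewer cells that express a gene or from less RNA in each cell, and these cannot be told apart. DDIT4 (ENSG00000168209.4) spans bases 72273920 to 72276036 of chromosome 10 in GRCh38, forward strand, and an antisense gene that overlaps it has no row. The use of strand in counting is not stated in the sources at hand, so reads of a gene and its antisense partner cannot be told apart.

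SESN2, the sestrin induced by ATF4, measured 11.5, 10.5 and 11.9 FPKM in the Bmi1 shRNA libraries, against 21.4, 23.4 and 22.5 FPKM in the scrambled shRNA libraries. Every Bmi1 shRNA library lay far below every scrambled shRNA library. The mean with Bmi1 shRNA was 50.5% of that with scrambled shRNA, at 11.3 ± 0.708 and 22.4 ± 1.03 FPKM (SD, n = 3 each), with a log2 fold change of -0.93 (standard error 0.07.) The ratio of DDIT4 to SESN2 within a library was 12.1 ± 0.636 with Bmi1 shRNA and 10.7 ± 0.499 with scrambled shRNA (SD, n = 3 each).

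SESN1, the first member of the sestrin family, measured 4.17, 2.51 and 3.83 FPKM in the Bmi1 shRNA libraries, against 4.47, 4.58 and 4.54 FPKM in the scrambled shRNA libraries. The scrambled shRNA libraries were nearly equal, and Bmi1 shRNA replicate 2 stood well below the other libraries of its group. The log2 fold change was -0.32 (standard error 0.14), and -0.15 without Bmi1 shRNA replicate 2. SESN3, a target of FOXO factors, went the other way at a low level. It measured 0.762, 0.689 and 0.843 FPKM in the Bmi1 shRNA libraries, against 0.293, 0.409 and 0.251 FPKM in the scrambled shRNA libraries, a ratio of means of 2.41.

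The makeup of the sestrin mRNAs differed as well. The 3 sestrins together reached 16.4, 13.7 and 16.6 FPKM in the Bmi1 shRNA libraries, against 26.1, 28.4 and 27.3 FPKM in the scrambled shRNA libraries. SESN2 made up 72.8 ± 3.49% of that sum with Bmi1 shRNA and 82.2 ± 0.391% with scrambled shRNA (SD, n = 3 each). SESN3 made up 4.92 ± 0.239% with Bmi1 shRNA and 1.16 ± 0.261% with scrambled shRNA. SESN2 was thus the main sestrin mRNA in every library, and SESN3 the least. SESN2 and SESN3 differ in GC content (59.5% and 37.1%), and the part of the GC trend described below in these shares was not tested. The sestrins lie apart in the genome, in GRCh38: SESN1 (ENSG00000080546.13) at bases 108986437 to 109094819 of chromosome 6, reverse strand, SESN2 (ENSG00000130766.4) at bases 28259527 to 28282491 of chromosome 1, forward strand, and SESN3 (ENSG00000149212.11) at bases 95165513 to 95232541 of chromosome 11, reverse strand.

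**Figure D1:**
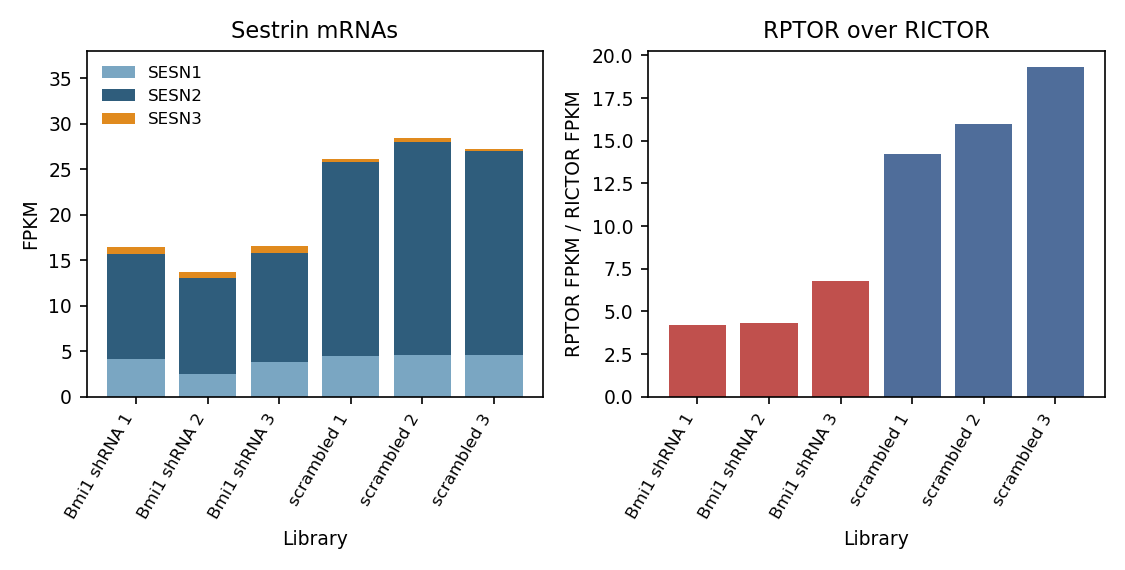
Left, FPKM of SESN1, SESN2 and SESN3 stacked for each library. Right, the ratio of RPTOR to RICTOR FPKM in each library. RPTOR and RICTOR differ in GC content (59.8% and 36.5%), and the ratio is not corrected for the GC trend. The Bmi1 shRNA libraries have sestrin sums of 13.7 to 16.6 FPKM and ratios of 4.20 to 6.80, below the scrambled shRNA libraries, which have sums of 26.1 to 28.4 FPKM and ratios of 14.3 to 19.3.

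TSC2, the part of the TSC complex that inactivates RHEB, measured 1.64, 1.66 and 1.95 FPKM in the Bmi1 shRNA libraries, against 2.42, 3.10 and 2.68 FPKM in the scrambled shRNA libraries. The groups did not overlap, but the gap between them was small. The log2 fold change was -0.44 (standard error 0.09). TSC2 (ENSG00000103197.17) spans bases 2047465 to 2089487 of chromosome 16 in GRCh38, forward strand, and overlaps those of NTHL1 and PKD1 on the other strand. These averaged 15.8 and 2.58 FPKM over the 6 libraries, and reads from the shared ends cannot be told apart.

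The kinase itself, MTOR, measured 2.04, 1.86 and 2.45 FPKM in the Bmi1 shRNA libraries, against 3.56, 4.08 and 3.69 FPKM in the scrambled shRNA libraries. Every Bmi1 shRNA library lay below every scrambled shRNA library. The mean with Bmi1 shRNA was 56.0% of that with scrambled shRNA, at 2.12 ± 0.303 and 3.78 ± 0.271 FPKM (SD, n = 3 each), with a log2 fold change of -0.62 (standard error 0.09.) RPTOR, the scaffold of mTORC1, was lower by a like factor. It measured 2.86, 2.49 and 3.50 FPKM in the Bmi1 shRNA libraries, against 4.25, 5.37 and 5.15 FPKM in the scrambled shRNA libraries (log2 fold change -0.59, standard error 0.12). The ratio of MTOR to RPTOR was 0.720 ± 0.0243 with Bmi1 shRNA and 0.772 ± 0.0627 with scrambled shRNA (SD, n = 3 each), and the ranges of the groups overlapped by library. In GRCh38, MTOR (ENSG00000198793.12) spans bases 11106535 to 11262507 of chromosome 1, reverse strand, and RPTOR (ENSG00000141564.14) bases 80544819 to 80966371 of chromosome 17, forward strand.

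RICTOR, the scaffold of mTORC2, went the other way at a very low level. It measured 0.682, 0.573 and 0.514 FPKM in the Bmi1 shRNA libraries, against 0.298, 0.336 and 0.267 FPKM in the scrambled shRNA libraries, a ratio of means of 1.96. Its level stayed under 1 FPKM in all 6 libraries. Set against each other within a library, RPTOR stood at 4.20, 4.34 and 6.80 times RICTOR with Bmi1 shRNA, against 14.3, 16 and 19.3 times with scrambled shRNA. These genes lie far apart in GC content, at 59.8% (RPTOR) and 36.5% (RICTOR). Tested genes of like GC content had median log2 fold changes of -0.23 and 0.48. The part of this GC trend, described below, in the ratio was not tested. RICTOR (ENSG00000164327.12) spans bases 38937919 to 39074408 of chromosome 5 in GRCh38, reverse strand.

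PRR5L, which binds RICTOR in mTORC2, showed the largest fold difference of the 10 and the widest spread. It measured 1.89, 1.61 and 2.11 FPKM in the Bmi1 shRNA libraries, against 3.26, 6.10 and 9.56 FPKM in the scrambled shRNA libraries. The Bmi1 shRNA libraries lay close together, whereas the scrambled shRNA libraries spread over a wider range than the difference between the group means. The groups did not overlap. The mean with Bmi1 shRNA was 29.6% of that with scrambled shRNA, at 1.87 ± 0.250 and 6.31 ± 3.16 FPKM (SD, n = 3 each). The log2 fold change was -1.26 (standard error 0.31), and it ran from -1.60 without scrambled shRNA replicate 1 to -0.94 without scrambled shRNA replicate 3. Relative to its paralog PRR5, PRR5L stood at 1.08 ± 0.165 times with Bmi1 shRNA and 3.25 ± 1.04 times with scrambled shRNA (SD, n = 3 each). PRR5L and PRR5 differ in GC content (49.1% and 62.1%), and the part of the GC trend, described below, in this ratio was not tested. PRR5L (ENSG00000135362.13) spans bases 36296288 to 36465204 of chromosome 11 in GRCh38, forward strand.

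The genes whose profile over the 6 libraries was most like that of PRR5L were DDX28, a mitochondrial RNA helicase (Pearson r = 0.994), CDK20, a kinase of the cyclin-dependent family (r = 0.989), and GNAI2, a G protein subunit (r = 0.988). They share the group difference and the order of the scrambled shRNA libraries with PRR5L, and all 6 points come from the same libraries. Their own differences were far smaller. DDX28 measured 11.4, 10.9 and 11.3 FPKM in the Bmi1 shRNA libraries, against 11.8, 13.1 and 14.1 FPKM in the scrambled shRNA libraries.

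DEPTOR, a subunit that inhibits the kinase in both complexes, was the 1 gene above 1 FPKM among the 10 that was higher with Bmi1 shRNA. It measured 4.60, 5.36 and 5.34 FPKM in the Bmi1 shRNA libraries, against 3.62, 3.60 and 3.33 FPKM in the scrambled shRNA libraries. The groups were clearly apart. The means were 5.10 ± 0.437 FPKM with Bmi1 shRNA and 3.52 ± 0.162 FPKM with scrambled shRNA (SD, n = 3 each), a ratio of 1.45, with a log2 fold change of 0.43 (standard error 0.07.) The ratio of MTOR to DEPTOR was 0.416 ± 0.0607 with Bmi1 shRNA and 1.08 ± 0.0789 with scrambled shRNA (SD, n = 3 each). MTOR and DEPTOR differ in GC content (52.2% and 45.7%) and in length (8677 and 2569 bases). The part of the GC content and length trend, described below, in this ratio was not tested. DEPTOR (ENSG00000155792.9) spans bases 119873717 to 120050913 of chromosome 8 in GRCh38, forward strand.

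**Figure D2:**
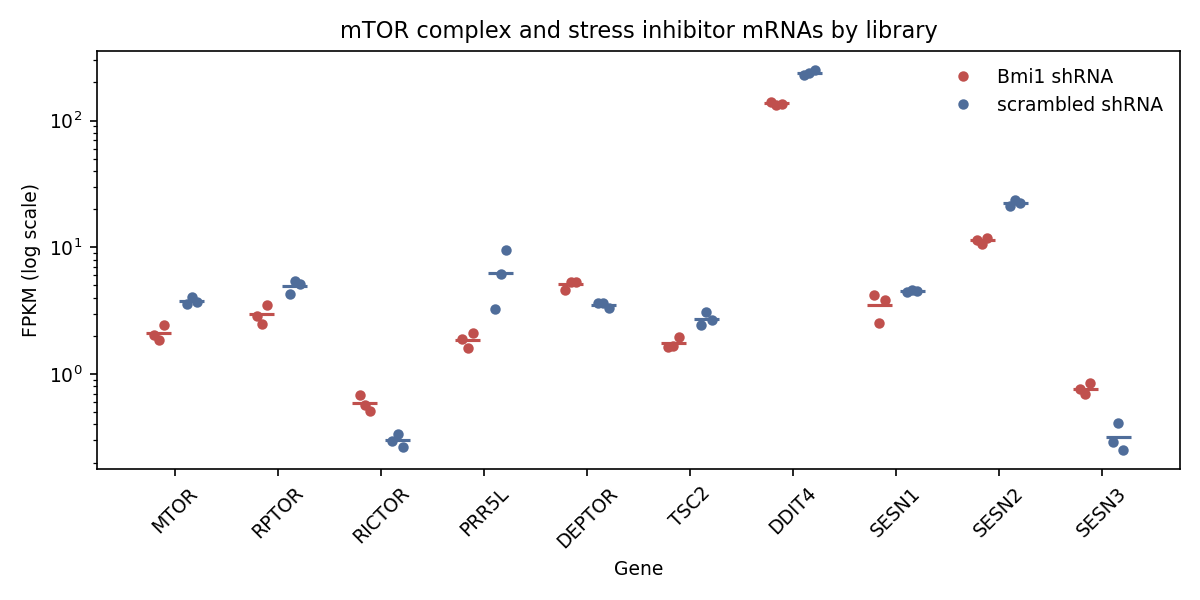
FPKM of the 10 genes in each library (log scale), with Bmi1 shRNA left of scrambled shRNA for each gene and horizontal bars for the group means (n = 3). DDIT4, at 133 to 141 FPKM with Bmi1 shRNA and 228 to 252 FPKM with scrambled shRNA, stands above all others, and RICTOR and SESN3 stay below 1 FPKM.

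The order of the levels differed between the groups. With Bmi1 shRNA it ran DDIT4, SESN2, DEPTOR, SESN1, RPTOR, MTOR, PRR5L, TSC2, SESN3 and RICTOR. In that order SESN1 (3.50 ± 0.879 FPKM; SD, n = 3) and RPTOR (2.95 ± 0.509 FPKM) did not differ beyond their spread, and neither did MTOR, PRR5L and TSC2, at 1.75 to 2.12 FPKM. With scrambled shRNA it ran DDIT4, SESN2, PRR5L, RPTOR, SESN1, MTOR, DEPTOR, TSC2, SESN3 and RICTOR. There PRR5L, RPTOR and SESN1, at 4.53 to 6.31 FPKM, could not be ordered within their spread, nor could MTOR and DEPTOR or SESN3 and RICTOR. PRR5L, at 6.31 ± 3.16 FPKM (SD, n = 3), could not be ordered against MTOR or DEPTOR either. DEPTOR thus stood above MTOR with Bmi1 shRNA and level with it with scrambled shRNA, in values not corrected for the GC content and length trend described below.

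Of the 10 genes, 8 reached a mean of 1 FPKM and entered the fit over all genes (limma, Benjamini-Hochberg adjusted p under 0.05). Of these, 6 were called lower, 1 higher (DEPTOR) and 1 neither (SESN1). Over all 11016 genes tested, 28.5% were called lower and 28.6% higher, 57.1% in all. Since these values chose the genes, nothing is read from the count. RICTOR and SESN3 did not reach the filter. For 7 of the 10 genes the groups did not overlap with Bmi1 shRNA lower, and for 3 they did not overlap with Bmi1 shRNA higher, beside 33.1% and 32.3% of all tested genes, or 65.4% in either direction. The median log2 fold change of the 8 was -0.60, beside -0.02 over all tested genes.

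In these libraries the fold change of a gene goes with the GC content of its transcript, and the GC content of the 10 genes differed too. The 3 that were higher with Bmi1 shRNA had a GC content of 36.5% (RICTOR), 37.1% (SESN3) and 45.7% (DEPTOR). The 7 that were lower had 43.4% (SESN1), 49.1% (PRR5L), 52.2% (MTOR), 58.1% (DDIT4), 59.5% (SESN2), 59.8% (RPTOR) and 60.5% (TSC2). Among tested genes in the same of 10 equal bins by GC content, the median log2 fold change was 0.48 for RICTOR and SESN3, -0.22 for MTOR, -0.23 for RPTOR, SESN2 and TSC2, and -0.24 for DDIT4. It was 0.18 for SESN1, -0.12 for PRR5L and -0.0013 for DEPTOR. SESN1 lay on the other side of 0 from genes of like GC content.

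**Figure D3:**
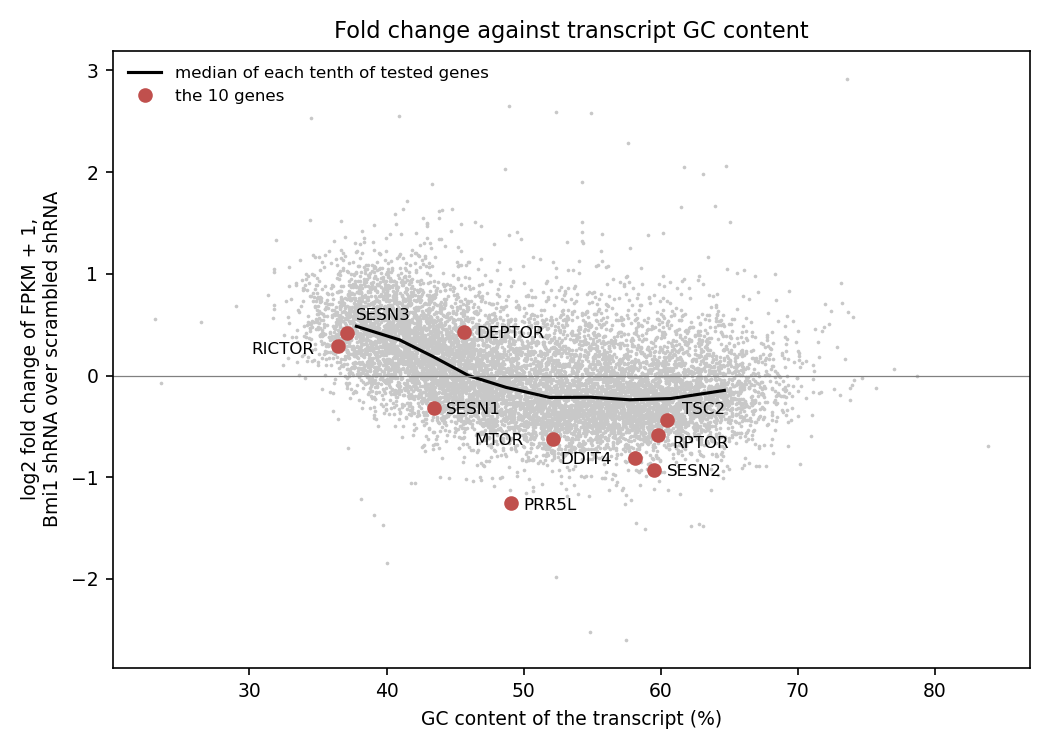
log2 fold change (Bmi1 shRNA over scrambled shRNA) of each tested gene against the GC content of its transcript in percent (grey), the median of each of 10 equal bins of these genes (line) and the 10 genes (red). RICTOR and SESN3 lie near the line, while PRR5L, at -1.26, lies farthest below it. RICTOR and SESN3 are below the filter, and this scale understates their fold changes.

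With the trend in GC content and length removed from each library, the 10 genes parted. MTOR kept a log2 fold change of -0.21 (standard error 0.05), RPTOR one of -0.17 (0.07) and TSC2 one of -0.03 (0.06), so that most of the difference in these 3 genes moved with GC content and length. DDIT4 stayed at -0.74 (0.05), SESN2 at -0.63 (0.05) and PRR5L at -1.04 (0.30). SESN1 stood farther out than before, at -0.47 (0.14), and DEPTOR stayed at 0.38 (0.07). The trend of the tested genes, applied to RICTOR and SESN3, left a log2 fold change of -0.07 for RICTOR and 0.09 for SESN3. The deposited values gave 0.29 and 0.42. Both genes lie below the filter, so the trend was fitted without them, and this step was not planned. The scale of log2(FPKM + 1) understates their differences, whose ratios of means were 1.96 and 2.41. The remainders therefore cannot show how much of either difference moved with GC content and length. With the trend removed 5 of the 8 tested genes were called lower (DDIT4, SESN2, PRR5L, SESN1 and MTOR) and 1 higher (DEPTOR). Of the 10225 genes with a known transcript, 20.5% were called lower and 19.1% higher (39.7% in all). The step would also remove real differences tied to base composition or to transcript length.

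**Figure D4:**
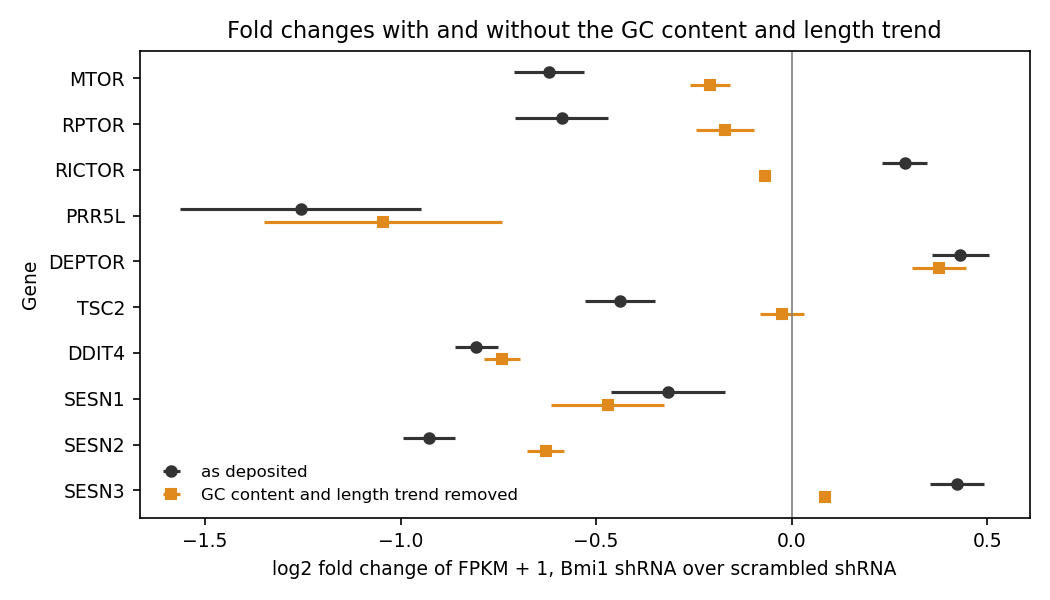
log2 fold change (Bmi1 shRNA over scrambled shRNA) of the 10 genes in the deposited values (black circles) and after removal of the GC content and length trend (orange squares). Bars are limma's standard errors (n = 3 each), from the fit with no filter for the deposited values of RICTOR and SESN3, which have none after removal. TSC2, RPTOR, RICTOR and SESN3 come close to 0, while DDIT4, SESN2, PRR5L and DEPTOR stay away from it. RICTOR and SESN3 are below the filter, and this scale understates their fold changes.

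The rest of the pathway was looked at through 96 other genes in 9 lists by function. Of these, 90 had a row, 6 were not analysed here and 72 reached the filter. In that fit 14 rose, 21 fell and 37 did not pass (limma, adjusted p under 0.05), which is 19.4% higher and 29.2% lower, beside the 28.6% and 28.5% over all tested genes. The median log2 fold change was -0.07, beside -0.02 over all tested genes. After removal of the trend 12 of the 72 were called higher and 12 lower, beside 19.1% higher and 20.5% lower over all genes. These shares also stand beside the counts with the trend removed that follow. The median was then -0.01, beside -0.02 over all genes. In that fit the subunit and assembly list had 1 gene higher and 2 lower, and the PI3K and AKT list 2 higher and 1 lower. The list of substrates and downstream genes had 3 higher and 3 lower, and the transcription factors 3 higher and 2 lower. The TSC complex list and the other sensors each had 1 gene lower and none higher, and the AMPK list had none called. Each gene named below as called in the deposited values lay, in 3 of 3 Bmi1 shRNA libraries, outside the range of the scrambled shRNA libraries. So did 65.4% of all tested genes, in either direction. The same values gave the calls, so nothing further is read from this.

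The remaining subunits of the complexes and their assembly factors fell or did not pass. Of 7 tested genes, 4 fell and none rose (median log2 fold change -0.16), beside 28.5% lower and 28.6% higher over all tested genes. With the trend removed 2 of the 7 were called lower and 1 higher. MAPKAP1 (SIN1), a subunit of mTORC2, measured 6.99 ± 1.27 FPKM with Bmi1 shRNA and 10.3 ± 0.389 FPKM with scrambled shRNA (SD, n = 3 each; log2 fold change -0.51; limma, adjusted p = 0.0106). TELO2 and TTI1, which help fold mTOR and related kinases, fell by 0.44 and 0.41 on the log2 scale (limma, adjusted p = 0.00266 and 0.00298). The call of MAPKAP1 ended with the trend removed (limma, adjusted p = 0.0655), while TELO2 and TTI1 stayed at -0.19 and -0.21 and were called. Of the TSC complex and RHEB genes, 3 were tested and none was called. TSC1, the partner of TSC2, stood below the filter at 0.677 ± 0.128 FPKM with Bmi1 shRNA and 1.04 ± 0.101 FPKM with scrambled shRNA (SD, n = 3 each).

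Of the 14 genes that rose, 4 encode parts of Ragulator, the scaffold that tethers the Rag GTPases to the lysosome. Of 8 tested genes of the Rag and Ragulator list, 4 rose, 1 fell and 3 did not pass, beside 28.6% higher and 28.5% lower over all tested genes, at a median log2 fold change of 0.30 beside -0.02 over all. With the trend removed 3 of the 8 were called higher and 2 lower, at a median of -0.00091. LAMTOR5 measured 73.9, 70.1 and 59.3 FPKM in the Bmi1 shRNA libraries, against 37.9, 43.6 and 44.6 FPKM in the scrambled shRNA libraries (log2 fold change 0.67; limma, adjusted p = 0.00216). LAMTOR4 measured 80.7, 81.6 and 82.3 FPKM in the Bmi1 shRNA libraries, against 53.0, 51.3 and 53.5 FPKM in the scrambled shRNA libraries (0.62; limma, adjusted p = 0.000282). In both genes the lowest Bmi1 shRNA library lay well above the highest scrambled shRNA library. LAMTOR2 rose by 0.60 and LAMTOR3 by 0.50 (limma, adjusted p = 0.00362 and 0.0169). With the trend removed LAMTOR5, LAMTOR4 and LAMTOR2 were still called, at 0.47, 0.41 and 0.37, and LAMTOR3 was not, at 0.065 (limma, adjusted p = 0.712). LAMTOR1, also a part of Ragulator, did not rise. It measured 34.4 ± 0.927 FPKM with Bmi1 shRNA and 43.4 ± 9.17 FPKM with scrambled shRNA (SD, n = 3 each) and was not called in either fit. The gene that fell was RRAGC, by 0.19 (limma, adjusted p = 0.025), and it stayed called with the trend removed, at -0.28. LAMTOR1 and RRAGC are named after their values were seen.

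The nutrient sensing complexes upstream of the Rag GTPases went both ways. Of 8 tested genes of GATOR1, KICSTOR and GATOR2, 4 fell and 1 rose, beside 28.5% lower and 28.6% higher over all tested genes, at a median log2 fold change of -0.27 beside -0.02 over all. With the trend removed none of the 8 was called, at a median of -0.04. Among subunits of GATOR2, which relieves the inhibition by GATOR1, SEH1L rose by 0.45 while WDR24 and WDR59 fell by 0.40 and 0.38 (limma, adjusted p = 0.0107, 0.0287 and 0.00331). With the trend removed these 3 stood at 0.0015, -0.13 and -0.072. The call of WDR24 also ended without Bmi1 shRNA replicate 1 or 3 or scrambled shRNA replicate 1 or 3 (limma, adjusted p up to 0.0854), with the replicate block (0.0614) and with no filter (0.0733). Below the filter, the GATOR2 gene MIOS stood at 1.11 ± 0.0384 FPKM with Bmi1 shRNA and 0.671 ± 0.134 FPKM with scrambled shRNA (SD, n = 3 each).

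Among the other sensors, 2 of 5 tested genes rose and 2 fell. This and the count for AMPK below stand beside 28.6% higher and 28.5% lower over all tested genes. TXNIP, which binds DDIT4 and thioredoxin and whose level follows glucose, had the largest change. It measured 15.7, 15.4 and 14.8 FPKM in the Bmi1 shRNA libraries, against 32.0, 31.3 and 31.6 FPKM in the scrambled shRNA libraries (log2 fold change -1.0; limma, adjusted p = 0.000193). The spread within each group was under 1 FPKM, and with the trend removed the log2 fold change was -1.15. FLCN, the folliculin gene, fell by 0.42 (limma, adjusted p = 0.00368) and was not called with the trend removed (-0.12). BMT2 (SAMTOR), a sensor of S-adenosylmethionine, rose by 0.34 (limma, adjusted p = 0.025). Its sign turned with the trend removed (-0.14), and its call ended without Bmi1 shRNA replicate 1 or 2 or scrambled shRNA replicate 2 or 3 (limma, adjusted p up to 0.0780), with no filter (0.0686) and with quantile normalization (0.0718). Of 5 tested genes of AMPK and its activators, 1 rose and 1 fell: PRKAA1, a catalytic subunit, by 0.31, and PRKAB1, a scaffold subunit, by 0.33 on the log2 scale (limma, adjusted p = 0.00528 and 0.00505). Neither was called with the trend removed, where PRKAA1 stood at -0.16 and PRKAB1 at -0.10.

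Upstream of mTOR, 1 of 11 tested genes of PI3K and AKT signalling was called lower in the deposited values, and none rose. Over all tested genes 28.5% were called lower and 28.6% higher. With the trend removed 2 of the 11 were called higher and 1 lower. IRS1, the adaptor that links the insulin and IGF receptors to PI3K and is a target of feedback from mTORC1, measured 3.61, 3.08 and 3.97 FPKM in the Bmi1 shRNA libraries, against 8.29, 9.48 and 8.45 FPKM in the scrambled shRNA libraries. The mean with Bmi1 shRNA was well under that of any scrambled shRNA library (log2 fold change -1.10; limma, adjusted p = 0.000374), and with the trend removed the fold change was -0.71. PDPK1, the kinase that activates AKT, measured 3.88 ± 1.25 FPKM with Bmi1 shRNA and 5.88 ± 1.59 FPKM with scrambled shRNA (SD, n = 3 each) and was not called, except without scrambled shRNA replicate 2 (limma, adjusted p = 0.0453). Below the filter, PIK3CA, the catalytic subunit of PI3K, stood at 0.936 ± 0.0287 FPKM with Bmi1 shRNA and 0.416 ± 0.0688 FPKM with scrambled shRNA, and the AKT phosphatase PHLPP1 at 0.740 ± 0.130 FPKM with Bmi1 shRNA and 1.21 ± 0.0252 FPKM with scrambled shRNA (SD, n = 3 each). INPP4B, a lipid phosphatase that opposes PI3K, was near 0, at 0.114 ± 0.0174 FPKM with Bmi1 shRNA and 0.0729 ± 0.0116 FPKM with scrambled shRNA (SD, n = 3 each).

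The genes listed as substrates of the complexes or as acting downstream of them also went both ways. Of 16 tested genes, 4 were higher, 5 lower and 7 did not pass, beside 28.6% higher and 28.5% lower over all tested genes. PDCD4, an inhibitor of translation that is degraded when mTORC1 and S6 kinase are active, measured 7.70, 8.28 and 7.66 FPKM in the Bmi1 shRNA libraries, against 4.11, 4.33 and 3.01 FPKM in the scrambled shRNA libraries (log2 fold change 0.89; limma, adjusted p = 0.00123). LARP1, which binds the mRNAs of ribosomal proteins, measured 20.1, 17.6 and 22.4 FPKM in the Bmi1 shRNA libraries, against 31.1, 36.8 and 32.6 FPKM in the scrambled shRNA libraries (-0.72; limma, adjusted p = 0.00188). Both stayed called with the trend removed, at 0.48 and -0.35. The cap-binding protein gene EIF4E rose by 0.47 and the S6 kinase gene RPS6KB1 by 0.36 (limma, adjusted p = 0.00949 and 0.00902), and neither was called with the trend removed, at 0.22 and -0.0017. Below the filter, the lysosomal regulator TFEB stood at 0.401 ± 0.0430 FPKM with Bmi1 shRNA and 0.760 ± 0.181 FPKM with scrambled shRNA (SD, n = 3 each).

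**Figure D5:**
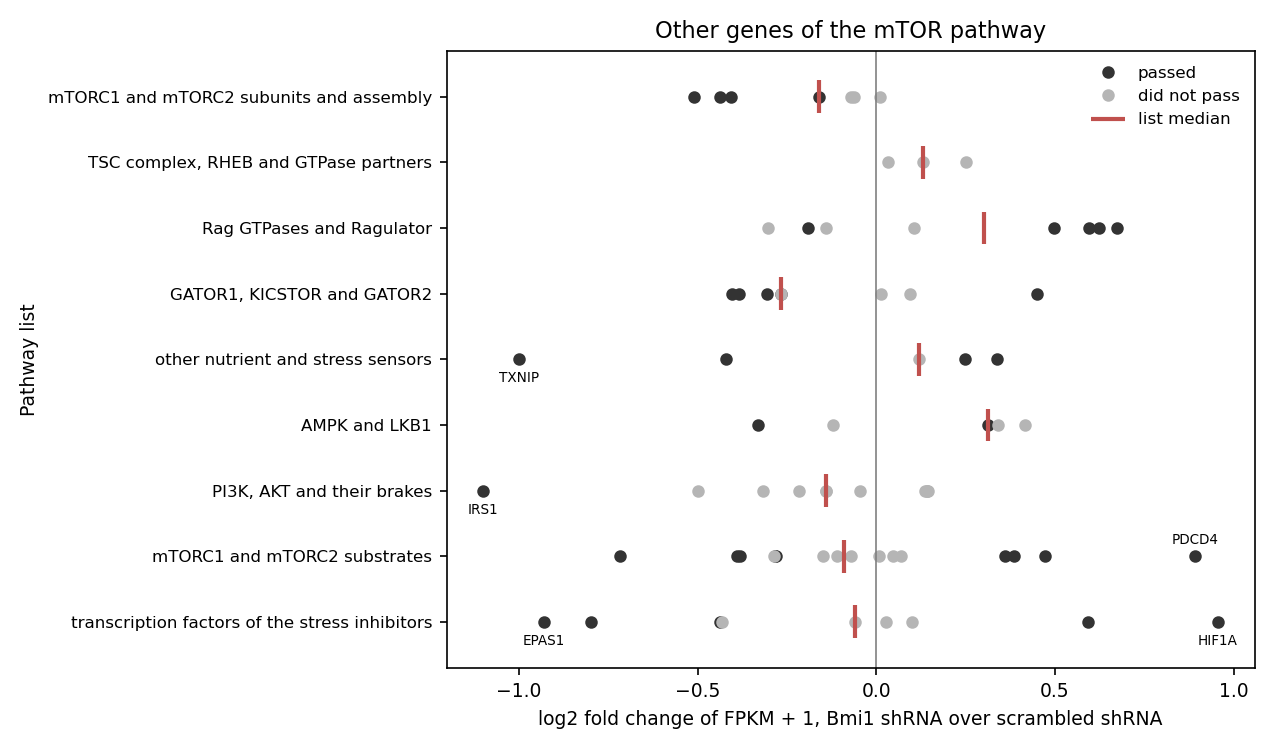
log2 fold change (Bmi1 shRNA over scrambled shRNA) of the 72 tested genes of 9 pathway lists, with genes that passed limma's threshold in black, the others in grey and each list's median as a red bar. IRS1 (-1.10) and TXNIP (-1.0) lie farthest to the left, HIF1A (0.96) and PDCD4 (0.89) farthest to the right.

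Of the transcription factors that act on DDIT4 and the sestrins, 9 were tested, of which 2 rose and 3 fell. Over all tested genes 28.6% were called higher and 28.5% lower. The hypoxia factors, both known to induce DDIT4, went opposite ways. HIF1A measured 9.62, 9.97 and 11.7 FPKM in the Bmi1 shRNA libraries, against 5.20, 4.61 and 4.81 FPKM in the scrambled shRNA libraries (log2 fold change 0.96; limma, adjusted p = 0.000432). EPAS1 (HIF-2 alpha) measured 6.36, 6.18 and 6.88 FPKM in the Bmi1 shRNA libraries, against 12.8, 13.9 and 13.0 FPKM in the scrambled shRNA libraries (-0.93; limma, adjusted p = 0.000267). With the trend removed they stood at 0.46 and -0.58 and both were called. NFE2L2 (NRF2), which answers oxidative stress, rose by 0.59 (limma, adjusted p = 0.000629; 0.56 with the trend removed). ATF4, which induces SESN2 and DDIT4, measured 614 ± 19.4 FPKM with Bmi1 shRNA and 640 ± 14.5 FPKM with scrambled shRNA (SD, n = 3 each) and was not called (limma, adjusted p = 0.281). CEBPB, a C/EBP factor, was lower, at 64.9 ± 3.39 FPKM with Bmi1 shRNA and 88.3 ± 5.74 FPKM with scrambled shRNA (SD, n = 3 each). Its log2 fold change was -0.44 (limma, adjusted p = 0.00247), and it stayed called with the trend removed, at -0.36. ATF4 and CEBPB are named as known regulators, after their values were seen.

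FOXO1, below the filter, stood at 0.376 ± 0.0440 FPKM with Bmi1 shRNA and 0.565 ± 0.0426 FPKM with scrambled shRNA (SD, n = 3 each). The other FOXO genes of the list, FOXO3 and FOXO4, were not called in the deposited values, at log2 fold changes of -0.43 and 0.10. With the trend removed FOXO3 was not called (-0.11) and FOXO4 was called higher (0.39). Both are named after their values were seen.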

How the data were processed

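Poly(A) RNA of 6 libraries, 3 per group, was sequenced in pairs on an Illumina NovaSeq, per the labels' protocols. These also name adipose material, which no sample is, and the design text calls the control an siRNA. The deposited values are FPKM, made by the authors. The submitters' processing notes list StringTie 1.3.0, HISAT2 2.0 and Bowtie 0.12.2 without saying what each did, and they name a mouse build. The organism is human and 19870 row names are human symbols, so the build is not settled. Columns headed Sh were read as Bmi1 shRNA and those headed Sc as scrambled shRNA, numbered as in the titles. Low values showed no steps of whole reads (at most 3.46% of low rows shared a ratio between libraries), so depth is unknown and no count test was run.

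limma 3.58.1 (R 4.3.3) was fitted to log2(FPKM + 1) of 11016 rows whose mean reached 1 FPKM, with group as the only term, a variance trend and Benjamini-Hochberg adjustment over all rows; the threshold was 0.05. The limma fit was tested on simulated data with independent noise. The removal of the GC content and length trend was not part of that test. GC content and length of each gene's longest protein-coding transcript (GENCODE 29, GRCh38) were known for 92.8% of these rows. Their trend was removed by regressing each library's deviation from the gene mean on natural splines (5 degrees of freedom each). The genes, lists and alternatives were chosen with earlier results of these data known. Named pathway genes are, in each list, the 3 largest changes among called genes and every gene with a ratio of means of at least 1.5 either way; 3 of them are not reported here. Replicate numbers did not pair the libraries (correlations of deviations -0.079 to 0.0037).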

Additional observations from a re-analysis of the deposited data

How the results depend on the processing

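The 10 genes were chosen by the difference that these settings recompute, so their values here are a description and show nothing of its stability. Leaving out 1 library at a time, the log2 fold change of DDIT4 ran from -0.84 to -0.77, SESN2 from -0.96 to -0.88, MTOR from -0.70 to -0.56 and DEPTOR from 0.40 to 0.49. Under each of these settings, a pseudocount of 0.1, quantile normalization, upper-quartile scaling, totals scaled to 1000000 and the replicate block, 6 of the 8 tested genes were called lower and 1 higher. Of all 11016 genes tested, 5658 to 6357 were called under these settings, in either direction. Scaling to a total of 1000000 moved the median log2 fold change of all genes to -0.10. With no filter 3 of the 10 genes were called higher, RICTOR and SESN3 included, beside 6381 of all 27238 rows called in either direction. With a mean of at least 5 FPKM only DDIT4 and SESN2 were tested, so 2 were called lower and 0 higher. Fewer pathway genes were tested too, and 9 of them were called higher. That filter called 3478 of 5641 tested genes. Removal of the GC content and length trend called 4057 of 10225, beside 6295 of 11016 in the main fit. With the trend removed 12 pathway genes were called lower, beside 21. The replicate block called 5658 genes, 13 pathway genes higher and 19 lower. It ended the call of 1 named pathway gene, WDR24. The sign of BMT2 (-0.14), PRKAA1 (-0.16) and RPS6KB1 (-0.0017) reversed with the trend removed. The cause was not tested. The unknown read depth limits the values of genes under 1 FPKM.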

Other observations

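Once the trend in GC content and length was removed, 8 pathway genes were called that were not called in the deposited values, 5 higher and 3 lower with Bmi1 shRNA. They were chosen for naming after their values were seen. ULK1, the kinase that starts autophagy and is held back by mTORC1, went to a log2 fold change of 0.43, against 0.07 in the deposited values (limma, adjusted p = 0.00213 with the trend removed and 0.435 without). AKT1S1 (PRAS40), an inhibitory subunit of mTORC1, went to 0.24, against -0.07 (limma, adjusted p = 0.00732 and 0.322). IRS2, the paralog of IRS1, went to 0.30, against -0.14 (limma, adjusted p = 0.0108 and 0.218), so that the adaptors stood on opposite sides of 0 in that fit, where IRS1 was at -0.71. FOXO4 and PIK3R3 were also higher, at 0.39 and 0.26. EIF4EBP1, the translation repressor that mTORC1 phosphorylates, went to -0.18, against 0.0081 (limma, adjusted p = 0.0136 and 0.902), and TBC1D7 and RRAGA were lower, at -0.25 and -0.16. In the other direction, 7 genes called higher and 12 called lower in the deposited values were not called with the trend removed. Over all tested genes the share called was 57.1% in the deposited values and 39.7% with the trend removed, so nothing particular to the pathway is read from these counts.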
